A study of Mus musculus with 93 samples.

Results

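Among 51 blood samples of tumor-bearing mice, the 17 arrays with the highest level of cytotoxic lymphocyte transcripts were set against the 17 with the lowest, out of 93 arrays in the series. The groups were selected on a score, the mean z value over the 51 arrays of Gzma, Gzmb, Prf1, Nkg7 and Klrd1, so the levels of those 5 genes describe the choice and were not tested. The mice were female FVB/NJ animals with a transgene of c-MYC, in some animals a stabilized mutant, that the MMTV promoter drives mainly in the mammary gland during pregnancy and lactation, and they were kept breeding. Controls were nontransgenic, tumor-free FVB/N females of like age and parity, and the average age at euthanasia was 431 days. Peripheral blood cells (PBCs) were taken from the cheek, red cells were lysed, and RNA of the remaining leukocytes was hybridized to Affymetrix mouse genome arrays. A random division by the study had made a training and a validation cohort. By their labels the 51 arrays were training tumors 6 to 32 together with validation tumors 9 to 33, of which number 19 was left out. The high group held 10 training and 7 validation arrays and the low group 7 and 10.

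Natural killer (NK) cells and cytotoxic CD8 T cells kill target cells by releasing granules that hold perforin, which opens membranes, and granzymes, proteases that trigger death of the target. NK cells read their targets through lectin-like receptors of the Klr families and through Ncr1, and T-box and Runx transcription factors direct much of their program. In blood these cells share the leukocyte pool with B cells, helper T cells, monocytes and neutrophils, so that a larger share of one type lowers the share of others. In such bulk samples fewer cells of a type and less RNA per cell cannot be told apart.

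Of the genes that turned out to carry the comparison, Klre1 and Klrc1 separated the groups without overlap, Ncr1 had the largest positive slope on the score among the single-symbol genes called in control blood, Gzmb is a gene of the score, and Spib and Saa3 stand for the B cell genes that were higher and the acute phase and neutrophil genes that were lower. The 250 bases before their transcription starts are shown for that reason, from RefSeq on build GRCm38.p6, in the direction of each gene. They lie at chr14:56262335-56262584 on the minus strand for Gzmb, chr7:4337465-4337714 on the plus strand for Ncr1, chr6:129577963-129578212 on the plus strand for Klre1, chr6:129678974-129679223 on the minus strand for Klrc1, chr7:44532072-44532321 on the minus strand for Spib and chr7:46715677-46715926 on the minus strand for Saa3. Capitals mark the Runx motif TGTGGT and the T-box motif TCACAC in the first 4, the ETS motif GAGGAA in Spib and the C/EBP motif TTNNGCAA in Saa3, each searched on both strands.
Gzmb: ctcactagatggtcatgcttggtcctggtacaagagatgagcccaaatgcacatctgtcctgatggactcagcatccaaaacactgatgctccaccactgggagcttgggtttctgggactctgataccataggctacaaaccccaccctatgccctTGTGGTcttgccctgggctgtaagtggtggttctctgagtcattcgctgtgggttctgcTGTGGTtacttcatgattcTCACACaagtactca
Ncr1: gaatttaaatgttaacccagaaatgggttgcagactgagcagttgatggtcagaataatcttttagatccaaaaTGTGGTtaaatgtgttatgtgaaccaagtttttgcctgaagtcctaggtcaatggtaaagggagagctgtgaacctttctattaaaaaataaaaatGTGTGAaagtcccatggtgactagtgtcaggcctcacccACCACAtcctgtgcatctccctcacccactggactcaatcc
Klre1: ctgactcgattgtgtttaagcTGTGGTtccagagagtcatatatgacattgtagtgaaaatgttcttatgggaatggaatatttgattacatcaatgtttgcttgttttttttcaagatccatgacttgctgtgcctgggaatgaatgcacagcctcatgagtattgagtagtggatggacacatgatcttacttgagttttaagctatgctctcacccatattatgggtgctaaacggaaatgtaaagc
Klrc1: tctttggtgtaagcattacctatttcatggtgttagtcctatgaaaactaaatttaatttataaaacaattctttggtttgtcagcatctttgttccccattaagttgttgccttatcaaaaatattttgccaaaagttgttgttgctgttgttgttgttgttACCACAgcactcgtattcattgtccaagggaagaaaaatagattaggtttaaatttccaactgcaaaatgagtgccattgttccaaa
Spib: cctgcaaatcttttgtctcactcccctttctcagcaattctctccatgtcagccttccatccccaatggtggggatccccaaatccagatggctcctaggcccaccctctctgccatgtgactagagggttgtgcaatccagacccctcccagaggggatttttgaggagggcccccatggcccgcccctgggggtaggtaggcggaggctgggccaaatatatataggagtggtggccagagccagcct
Saa3: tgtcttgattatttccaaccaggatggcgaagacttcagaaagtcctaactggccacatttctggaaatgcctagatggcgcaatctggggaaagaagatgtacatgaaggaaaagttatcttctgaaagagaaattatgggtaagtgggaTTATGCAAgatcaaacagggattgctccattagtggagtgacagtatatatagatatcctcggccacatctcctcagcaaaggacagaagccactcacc
The Runx letters stood in the windows shown for all 4 cytotoxic genes and in 14% of the 32851 mouse promoter windows of the same length. Each gene is shown by its start farthest upstream. The 4 genes were picked from these results, so no enrichment can be read from them. The T-box letters stood in the Gzmb and Ncr1 windows and in 12.3% of all windows. The C/EBP letters were found once before Saa3 and in 9.56% of all windows. They were found for 2 of the 8 genes with a window among the largest rises and for 1 of 10 among the largest falls. The ETS letters are found in 23.3% of windows and were not in that of Spib. Among the 12 genes with the largest rises, 8 had a window and 5 of those held the Runx letters, against 4 of 10 among the 12 genes with the largest falls. In the counts of rises and falls a gene was counted if any of its windows held the letters. They are therefore not comparable with the percentages, which are shares of single windows. These matches describe letters and not binding.

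The score ran from 1.28 on validation array 22 to -1.84 on training array 15. The last array inside the high group (validation 31) stood at 0.40 and the next outside it (validation 20) at 0.28, while the first array inside the low group (training 21) stood at -0.28 and the next outside it (training 16) at -0.23. Both boundaries therefore cut through a continuous range.

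Levels here are RMA values on the log2 scale, in which a difference of 1 is a doubling. Gzma, granzyme A, ranged from 10.1 to 11.1 with a median of 10.5 in the high arrays and from 5.46 to 10.1 with a median of 9.56 in the low arrays. Gzmb, granzyme B, ranged from 8.12 to 9.11 (median 8.55) in the high and from 5.29 to 8.14 (median 7.37) in the low arrays. For both granzymes the lowest value by far was that of training array 15. Nkg7, a granule membrane protein of killer cells, ranged from 10.7 to 11.7 (median 11.2) against 9.87 to 10.7 (median 10.3). Klrd1 (CD94), the partner chain of NKG2 receptors, lay between 9.9 and 10.7 (median 10.2) in the high arrays and between 8.57 and 9.83 (median 9.33) in the low arrays, without overlap.

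Prf1, perforin, did not follow the other markers where the score read it. Its brighter probe set ranged from 8.81 to 9.4 (median 9.04) in the high arrays and from 8.1 to 9.22 (median 9.12) in the low arrays, so the groups overlapped almost fully. The dimmer Prf1 probe set ranged from 7.53 to 8.23 (median 7.88) in the high and from 6.23 to 7.16 (median 6.88) in the low arrays, with no overlap. Scored with that probe set in place of the brighter one, 17 of 17 high and 13 of 17 low arrays were the same.

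**Figure D1:**
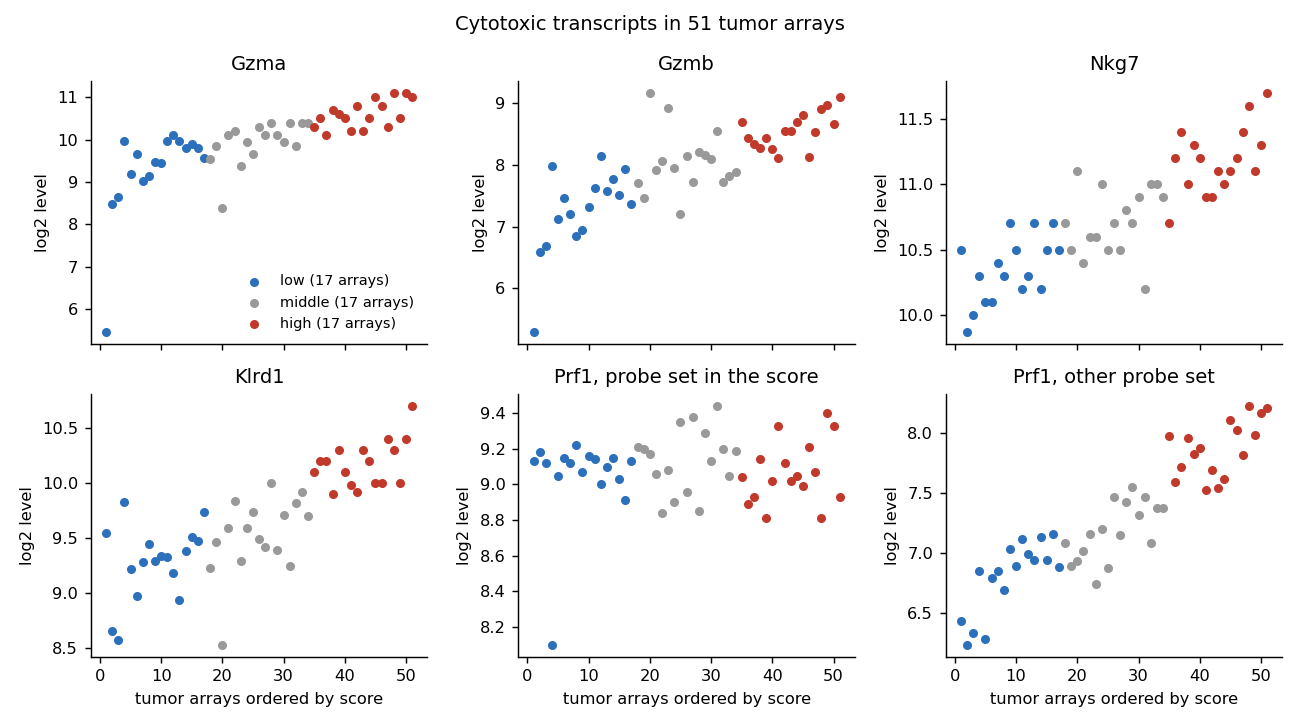
Log2 level (vertical axis) of the 5 marker genes and of the second Prf1 probe set in the 51 tumor arrays, ordered by score on the horizontal axis, 1 point per array, with the 17 low arrays in blue, the 17 middle ones in grey and the 17 high ones in red. Training array 15 lies lowest in Gzma at 5.46 and Gzmb at 5.29, and the Prf1 probe set in the score has medians of 9.04 in the high and 9.12 in the low arrays.

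Some arrays stood apart. Training array 22, in the low group, had an actin 5' minus 3' difference of -2.3 where the high arrays lay between -0.6 and -0.4, a measure that falls as RNA or its copies shorten. Among the low arrays it had the lowest Prf1 value in the score's probe set (8.1) but the highest Klrd1 value (9.83). Its mean over the NK receptor genes listed below (7.105) was also the highest of the low arrays. Validation array 19, left out by the rule, would have scored highest at 3.59. Control training array 11, with a score of 0.66, had a median over all probe sets of 4.3, the lowest of the 93 arrays. Its part in the slopes in control arrays was not tested. The array median of all probe sets was higher in the high arrays by 0.06 (permutation test of 17 against 17, two-sided, adjusted p = 0.0078 over 5 measures), and the poly-A spike-in dap, the 18S ribosomal RNA control and the actin and GAPDH 5' minus 3' differences did not pass the test (adjusted p = 0.0776, 0.28, 0.835 and 0.835). The dap spike-in averaged 8.72 in the high and 8.24 in the low arrays, while its median was 2.18 in control arrays and 2.55 in the 13 tumor arrays with lower label numbers (1 to 5 and 1 to 8), which therefore differ technically from the 51. The part of these measures in the results was not tested beyond the covariate fits given below.

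Across the other genes, the high and the low arrays differed widely. With limma on 45031 probe sets outside the 5 markers, and with cohort as a covariate, 7813 were called at an adjusted p under 0.05, which is 17.4% of those tested. Read by the brightest probe set with a single symbol, 2038 of 18188 genes were higher (11.2%) and 1831 were lower (10.1%) in the high arrays, and the median difference over all genes was -0.01. Most differences were below a doubling, since 143 of the 3869 called genes differed by over 1. All 17 high arrays lay above all 17 low arrays in 2 genes (0.011%), Klrc1 and Klre1, and all below them in 0 genes (0.0%). The count of each list below is to be read against those 11.2% and 10.1%.

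Receptors of NK cells were prominent among the rises. Of 24 measured genes of the NK cell receptor and marker list, 15 rose and 2 fell, with a median difference of 0.51. Klre1, a lectin-like receptor subunit, ranged from 8.05 to 8.8 (median 8.49) in the high arrays and from 5.83 to 7.73 (median 7.35) in the low arrays. It rose by 1.31 ± 0.136 (SE, n = 17 and 17, limma adjusted p = 9.24e-08), and no arrays overlapped. Klrc1 (NKG2A), the inhibitory partner of Klrd1, ranged from 7.15 to 8.1 (median 7.56) against 5.97 to 6.98 (median 6.64), also without overlap. Its difference was 1.00 ± 0.103 (limma adjusted p = 9.24e-08).

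Klrb1a, a receptor of the NKR-P1 family, ranged from 6.38 to 7.87 (median 7.23) in the high arrays and from 4.16 to 6.9 (median 5.98) in the low arrays. At 1.60 ± 0.193 (limma adjusted p = 2.25e-06) it was the largest rise among the genes named by size, with 13 of 17 high arrays above the highest low array. Ncr1 (NKp46), an activating receptor of NK cells, ranged from 7.58 to 8.86 (median 8.24) against 3.73 to 7.82 (median 6.99) and rose by 1.55 ± 0.207 (limma adjusted p = 9.15e-06). Klrk1 (NKG2D), which recognizes ligands of stressed cells, rose by 1.24 ± 0.175, and Klrg1, a receptor of mature killer cells, by 1.17 ± 0.15. Klrb1b (0.99 ± 0.161) and Klra7, an inhibitory Ly49 receptor (0.93 ± 0.124), rose as well, although probe sets of the Ly49 family can bind transcripts of several members. The members that fell were Cd244a, an adhesion receptor of NK and myeloid cells, at -0.51 ± 0.107 and Il18rap, a chain of the IL-18 receptor, at -0.47 ± 0.103. Klrc2, the activating relative of Klrc1, was dim in both groups (median 2.18 against 2.15) and did not pass the test at 0.09 ± 0.0932.

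The cargo of the granules moved in part. Of 21 further granzymes and cargo genes 10 rose and 1 fell, with a median of 0.12. Ifng, the cytokine interferon gamma, ranged from 4.96 to 6.77 (median 5.98) in the high and from 4.14 to 6.27 (median 4.81) in the low arrays, which overlapped, and rose by 1.13 ± 0.159 (limma adjusted p = 1.53e-05). Fasl, the ligand of the death receptor Fas, rose by 1.04 ± 0.145, and Ctsw, a cathepsin of killer cells, by 0.82 ± 0.0985. The granzyme inhibitors of the serpin family rose beside the granzymes, with Serpinb9b at 1.07 ± 0.23 and Serpinb6b at 0.95 ± 0.148. Gzmm, another granzyme, rose by 0.57 ± 0.158, while Gzmk was near the floor (median 3.27 against 3.31) and the 6 genes Gzmc to Gzmg and Gzmn lay between -0.11 and 0.10 without passing the test. Ctsc, the protease that activates granzymes and also serves neutrophil proteases, fell by 0.28. Cma1, a chymase known from mast cells that was put on the NK list with earlier results of these data known, rose by 1.43 ± 0.213 (limma adjusted p = 2.95e-05), from a median of 6.77 in the low to 7.77 in the high arrays.

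The machinery of granule release moved both ways. Of its 18 members 3 rose and 6 fell, with a median of -0.06 that was 0.0072 with the mean levels of the B cell, neutrophil and erythroid lists as covariates. Sytl2, which docks granules at the membrane, rose by 0.78 ± 0.157, whereas Stxbp2, a fusion factor, fell by 0.40 and Lyst, a regulator of lysosome size, fell by 0.43. Signaling molecules divided too. Of 19 adaptors and proximal kinases 8 rose and 9 fell. Sh2d1a (0.83 ± 0.156), Cd247, the zeta chain of the T cell receptor (0.64), and Zap70, its kinase (0.48), were among those that rose. Fcgr3 (-0.47 ± 0.0906), Vav1 (-0.44 ± 0.0783), Fcer1g (-0.24 ± 0.049) and Tyrobp (-0.18), which myeloid cells use too, were among those that fell.

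CD8 T cell and general T cell genes rose with the NK genes. Of 10 CD8 and cytotoxic T cell markers 9 rose and 0 fell, with a median of 0.81, and of 20 T cell markers 17 rose and 0 fell, with a median of 0.59. Klrg1 and Cd160 stand on both the CD8 and the NK list, so the counts of those lists are not independent. Cd8a, a chain of the CD8 coreceptor, ranged from 9.59 to 10.8 (median 10.4) against 8.95 to 10.2 (median 9.55) and rose by 0.83 ± 0.119 (limma adjusted p = 2e-05). Ccl5, a chemokine that killer and memory T cells store, ranged from 11.2 to 12.1 (median 11.7) against 10.4 to 11.2 (median 10.9). It rose by 0.80 ± 0.0829 (limma adjusted p = 9.24e-08), and 16 of 17 high arrays lay above the highest low array. Cd2, an adhesion molecule of T and NK cells, rose by 0.86 ± 0.109. With the dap spike-in as a covariate 9 of 20 T cell and 9 of 10 CD8 markers were called. In that fit 15 of 24 NK and 18 of 20 B cell genes were higher and 17 of 19 neutrophil genes were lower. Of the 127 called genes named here outside the score, 113 kept their call in it.

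Of 11 helper and regulatory T cell genes 5 rose and 1 fell, with a median of 0.35. Il2ra (0.68 ± 0.148), Icos (0.60 ± 0.15) and Ctla4 (0.58 ± 0.143), which regulatory and activated T cells carry, rose, and Zbtb7b, a factor of the helper lineage, fell by 0.42. Checkpoint receptors, which restrain lymphocytes, gave 5 of 10 higher and 2 lower. Besides Klrg1, given above, the rises included Btla (0.84 ± 0.164), which B cells carry too, while Pdcd1 (0.24), Lag3 (0.16) and Havcr2 (0.12) did not pass the test.

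Of 21 transcription factors of the cytotoxic lineages 10 rose and 2 fell, with a median of 0.30. Tbx21 (T-bet), which drives granule genes, ranged from 8.41 to 9.31 (median 8.86) in the high and from 6.77 to 9.42 (median 7.74) in the low arrays and rose by 0.98 ± 0.146 (limma adjusted p = 2.95e-05). All but 1 of the low arrays lay below the lowest high array, and that array was the highest of all 34. Eomes, its relative, rose by 0.81 ± 0.143, Gata3 by 0.92 ± 0.144 and Runx3 by 0.60 ± 0.102, although a dimmer probe set of Runx3 stood at -0.23. Nfil3, a factor needed early in NK development that other leukocytes express too, was lower by -1.09 ± 0.174 (limma adjusted p = 5.82e-05), with medians of 8.97 and 10.2. Bhlhe40 fell by 0.71.

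Cytokine receptors and chemokines followed in part. Of 19 receptors and signaling genes of IL-2, IL-12, IL-15 and IL-18, 5 rose and 3 fell. Il2rb, the receptor chain shared by IL-2 and IL-15, rose by 0.68 ± 0.12 and Stat4, which carries the IL-12 signal, by 0.54 ± 0.0995, whereas the inhibitor Socs3 was lower by -0.62 ± 0.118. Of 18 chemokines and homing receptors 10 rose and 1 fell, with a median of 0.38. Among them were Xcl1 (0.77 ± 0.123) and Ccl3 (0.75 ± 0.135), which killer cells secrete, and Cxcr3 (0.76 ± 0.116), a receptor of effector T and NK cells.

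**Figure D2:**
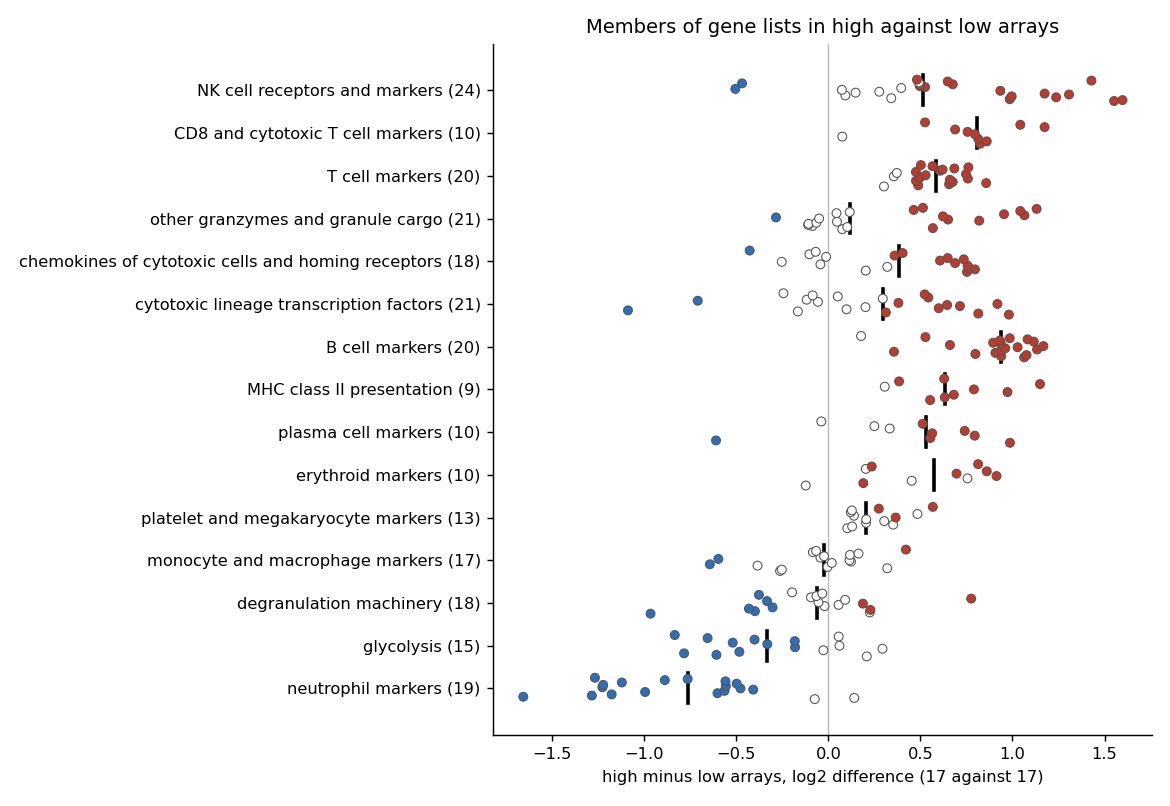
Log2 difference of the high minus the low arrays (horizontal axis) for each measured gene of 15 lists, with the number of genes in brackets, red and blue for genes called higher and lower, white for those not called, and a black bar at the list's median. The B cell genes gather near their median of 0.94 and the neutrophil genes lie at or below -0.41 save S100a8 and S100a9.

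B cell genes rose as well, although no B cell gene entered the score. Of 20 measured B cell markers 19 rose and 0 fell, with a median of 0.94. Spib, a transcription factor of B cells, ranged from 9.11 to 10.8 (median 9.97) in the high arrays and from 7.72 to 9.84 (median 8.88) in the low arrays and rose by 1.13 ± 0.18 (limma adjusted p = 5.49e-05). Ms4a1 (CD20) ranged from 9.24 to 11 (median 10.3) against 8.07 to 9.78 (median 9.42). Its difference was 1.08 ± 0.178 (limma adjusted p = 8.39e-05), and 13 of 17 high arrays lay above the highest low array. Fcer2a (CD23), the low-affinity IgE receptor, rose by 1.17 ± 0.239 and Cd72, an inhibitory receptor of B cells, by 0.94 ± 0.137. Of 9 MHC class II genes 8 rose and 0 fell, with a median of 0.63, led by H2-DMb2, a peptide-loading chain, at 1.15 ± 0.179. Of 10 plasma cell genes 6 rose, among them Mzb1 at 0.99 ± 0.168, and Xbp1, a secretory factor that is not limited to plasma cells, fell by 0.61. Immunoglobulin light chain segments stood among the 12 largest rises with Igkv6-20 (1.29), Igkv9-120 (1.23) and Igkv19-93 (1.18), although dimmer probe sets of Igkv9-120 stood at 0.50 and -0.11.

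Neutrophil genes moved the other way. Of the 19 markers measured, 17 fell and 0 rose, and their median difference was -0.76. Ltf, lactotransferrin of the specific granules, ranged from 8.62 to 11.2 (median 10.0) in the high arrays and from 9.68 to 13.5 (median 11.4) in the low arrays and differed by -1.66 ± 0.338 (limma adjusted p = 0.000657). Mmp8, neutrophil collagenase, ranged from 10.3 to 11.8 (median 10.9) against 10.9 to 13.2 (median 11.8) and differed by -0.99 ± 0.168. Camp (-1.28 ± 0.306), an antimicrobial peptide, and Il1r2 (-1.22 ± 0.209), a decoy receptor of IL-1, fell as well. The calcium-binding proteins S100a8 (-0.07) and S100a9 (0.14) did not pass the test. Averaged over the list, 9 of 17 high arrays lay below the lowest low array and 0 lay above the low arrays' median.

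Among the genes named by size, the largest differences were falls. Saa3, an acute phase protein, ranged from 5.22 to 9.85 (median 7.39) in the high arrays and from 6.27 to 13.2 (median 11) in the low arrays, and 12 of 17 low arrays lay above the highest high array. It differed by -3.44 ± 0.514 (limma adjusted p = 3.08e-05). Lipg, endothelial lipase, ranged from 3.0 to 6.68 (median 4.14) against 3.44 to 12.4 (median 7.68) and differed by -3.46 ± 0.675 (limma adjusted p = 0.000426). Prok2, a chemokine-like factor of neutrophils, had medians of 7.83 and 10.5 and differed by -2.38 ± 0.404. Stfa3, a protease inhibitor of the stefin family, differed by -2.48 ± 0.447, and Lbp, which binds bacterial lipopolysaccharide, by -2.13 ± 0.306. Kit, the receptor of stem cell factor, differed by -2.40 ± 0.387, with medians of 4.47 and 6.85. In all of these the low arrays spread over a wider range than the high ones.

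Glycolysis genes fell with the neutrophil genes, since 10 of 15 were lower and 0 higher, with a median of -0.33. Slc16a3, a lactate exporter, differed by -0.83 ± 0.111 (limma adjusted p = 9.15e-06), Hk3, a hexokinase of myeloid cells, by -0.78 ± 0.123 and Slc2a1, a glucose transporter, by -0.66 ± 0.114. Averaged over the list, 13 of 17 high arrays lay below the lowest low array. Of 20 immediate early and stress genes 6 fell and 4 rose, with Junb at -0.80 ± 0.138 and Egr1 at 0.52 ± 0.122. Monocyte genes did not move as a group, since 1 of 17 rose and 2 fell with a median of -0.02, the latter being Cd14, a lipopolysaccharide coreceptor (-0.60 ± 0.124), and Fcgr4, an IgG receptor (-0.64 ± 0.136). Of 13 eosinophil, basophil and mast cell genes 2 rose and 4 fell, with a median of 0.28. The rises were Il5ra (0.63 ± 0.213) and Gata2 (0.60 ± 0.154). The falls were Siglecf, an eosinophil lectin (-1.0 ± 0.201), Hdc (-0.71 ± 0.136), Epx (-0.30 ± 0.103) and Kit, given above.

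Further lists covered other cell types and programs. Of 10 erythroid markers 6 rose, with a median of 0.57, but without low arrays training 15 and 22 the count was 2, and it was 0 with the dap spike-in as a covariate. Proliferation genes gave 6 of 23 higher, led by the replication factor Mcm7 (0.51 ± 0.0849). Interferon response genes gave 2 of 22 higher and 2 lower, ribosomal protein genes 1 of 17 higher, MHC class I genes 1 of 11 higher, and dendritic cell genes 1 of 12 higher (Ly6d, which B cells express too). Platelet genes gave 3 of 13 higher and mammary and milk genes 1 of 15 higher, the keratin Krt18 at 0.64 ± 0.228 (limma adjusted p = 0.0489, and 0.0703 without low array training 15), while the casein Csn1s1 had medians of 1.93 and 1.92.

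When the mean levels of the B cell, neutrophil and erythroid lists entered as covariates, few calls were left. Of 45031 probe sets 9 were called, and of 18188 genes 5 (0.0275%). Klrc1 (0.95 ± 0.151), Ccl5 (0.61 ± 0.106), Klra7 (0.96 ± 0.188) and Ptpn4 (0.73 ± 0.137) were higher and Cacna1f (-1.02 ± 0.199) lower by limma. In that fit the median difference was 0.36 over the NK list, 0.53 over the CD8 list and 0.32 over the T cell list, of which 22 of 24, 10 of 10 and 20 of 20 genes lay above 0. It was -0.01 over the B cell and 0.00 over the neutrophil lists, whose means were the covariates.

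Within the cohorts the main lists kept their direction. The median difference in the training and the validation arrays alone was 0.57 and 0.70 over the NK list, 0.43 and 0.79 over the T cell list, 0.96 and 0.95 over the B cell list, and -0.69 and -0.64 over the neutrophil list. It differed in sign over 6 lists, the monocyte (0.23 and -0.27), interferon (0.21 and -0.31), dendritic cell (0.40 and -0.05), MHC class I (0.15 and -0.07), cytokine receptor (0.12 and -0.01) and mammary (-0.0049 and 0.04) lists. Numbers of calls were 693 of 45031 probe sets in the training and 5660 in the validation arrays. The interaction of high against low with cohort was called for 0 probe sets by limma, with 2265 at an unadjusted p under 0.05.

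**Figure D3:**
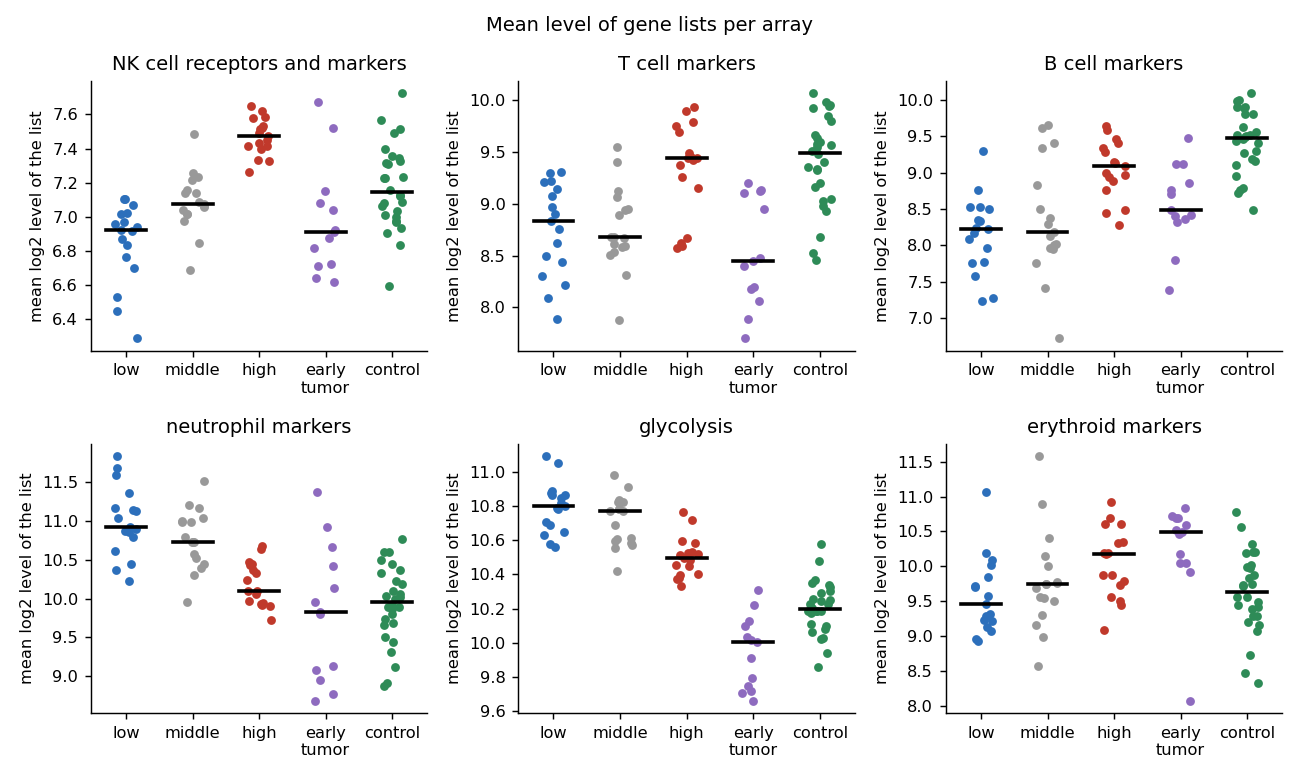
Mean log2 level per array (vertical axis) of 6 gene lists in the low, middle and high tumor arrays (17 each), the 13 tumor arrays with lower label numbers (early tumor) and the 28 control arrays, 1 point per array, with a black bar at the median. All 17 high arrays lie above the highest low array in the NK list, and the neutrophil and glycolysis lists run the other way.

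The middle arrays and the controls place the extremes. The mean of the NK list per array had a median of 6.92 in the low, 7.08 in the middle and 7.47 in the high arrays, and of 7.14 in control arrays, whose range of 6.60 to 7.72 covered that of the high arrays. The B cell list had medians of 8.22, 8.18 and 9.10 and of 9.48 in controls, so the middle arrays lay with the low ones and the high arrays lay nearer to the controls. The T cell list stood likewise at 8.84, 8.68 and 9.44 and at 9.49 in controls. The neutrophil list had medians of 10.92, 10.73 and 10.10 and of 9.95 in controls, and the glycolysis list of 10.80, 10.77 and 10.50 and of 10.20 in controls. These levels are given as a description, since control and tumor arrays differ in the spike-in.

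Control blood, which did not take part in choosing the groups, was read next. The score was computed for the 28 control arrays with the means and standard deviations of the 51 tumor arrays, and each gene was fitted on it by limma with cohort as a covariate. Slopes are log2 differences per unit of the score. Of 18188 genes 8 had a positive slope (0.044%) and 0 a negative one (0.0%) at an adjusted p under 0.05. These were Serpinb6b (0.83 ± 0.106), Ncr1 (1.25 ± 0.174), Klrb1a (1.18 ± 0.184), Klrk1 (0.73 ± 0.117), Klrb1b (0.91 ± 0.165), Klre1 (0.94 ± 0.172), Klrg1 (0.58 ± 0.11) and Cma1 (1.01 ± 0.193), and all 8 were also higher in the high tumor arrays. Of the 24 NK genes 7 were called in control arrays, against 0 of 20 T cell, 0 of 20 B cell and 0 of 19 neutrophil genes. The 7 include Cma1, which was put on the NK list with earlier results of these data known. Without the cohort covariate 7 NK and 6 T cell genes were called, so the contrast with the T cell list depended on that covariate. Over all 45031 probe sets that fit called 215, against 13 with the covariate. It also called 4 of 17 ribosomal protein, 3 of 10 CD8 and 3 of 21 granule cargo genes, and 0 B cell and 0 neutrophil genes.

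The median slopes of the lists stood side by side as follows in tumor and control blood. Over the NK list the median slope was 0.32 in the 51 tumor arrays and 0.26 in the control arrays. Over the T cell list it was 0.35 and 0.37, and over the neutrophil list -0.47 and -0.36. Over the B cell list it was 0.63 in tumor and 0.10 in control arrays, over the MHC class II list 0.43 and 0.07, and over the erythroid list 0.37 and -0.31. Spib had a slope of 0.73 ± 0.133 in tumor and 0.08 ± 0.163 in control arrays. The interaction of slope with tumor status was called for 0 members of each of these lists, so these differences between tumor and control blood did not pass the test. With array weights 8 of 20 B cell and 9 of 10 erythroid genes were called steeper in tumor arrays. That fit called 3600 of all 45031 probe sets, against 3 without weights, so these counts are part of a general rise in calls. These 51 tumor and 28 control arrays also differ in the spike-in and the transgene. Among them, those differences and the presence of a tumor cannot be told apart.

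**Figure D4:**
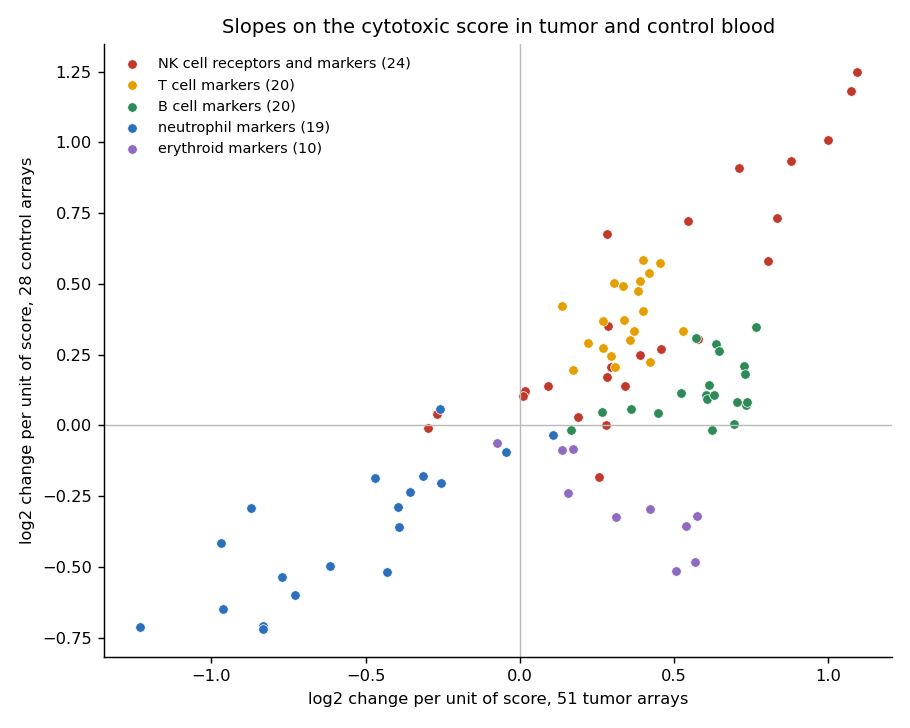
Slope on the score in 28 control arrays (vertical axis) against that in 51 tumor arrays (horizontal axis), both in log2 units per unit of score, for the genes of 5 lists, 1 point per gene. The NK genes reach 1.25 in control arrays, the B cell genes lie near 0.10 there, and the erythroid genes lie below 0.

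In the 13 tumor arrays with lower label numbers the slope was fitted without the cohort covariate, since they were too few for it. It was called for 7 of 18188 genes (0.0385%). Positive slopes were called for Ncapg (1.14 ± 0.175) and Cenpp (1.00 ± 0.163), which act in mitosis, and Tipin (0.86 ± 0.146), which protects replication forks. Kbtbd8 (0.98 ± 0.135) and Naa20 (0.63 ± 0.107) had positive slopes too. Svs6 (-0.63 ± 0.101) and Papln (-0.75 ± 0.127) had negative slopes. The lowest score among these arrays was -3.91, on validation array 2, and its part in the slopes was not tested. The median slope there was 0.26 over the NK list, 0.41 over the proliferation list and -0.22 over the neutrophil list. It was 0.23 over the T cell, 0.16 over the B cell, 0.29 over the MHC class II and 0.0062 over the erythroid list. In each of these lists 0 members were called. Those arrays lack the spike-in and had a median actin difference of -1.4, and the part of this in their slopes was not tested.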

How the data were processed

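Peripheral blood of 65 tumor-bearing and 28 control mice was measured on 1 array each. Per the labels, the deposited log2 values came from RMA (background correction, quantile normalization, median polish), and whether the standardization on control probe sets named in the study's methods is in them is not stated. Values from 10 on carry 1 decimal. The version of RMA and a genome build were not given in the sources used here. All columns belonged to a sample of the series, with 0 columns of no sample.

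Of 45101 probe sets, 64 controls were left out. A platform table gave 34945 of the other 45037 a single symbol, and the brightest of a gene's single-symbol probe sets over all 93 arrays was taken, giving 18193 genes. Of 476 listed genes 418 were measured, one of them (Cd244) through a RefSeq synonym. Groups of high and low arrays were compared by limma 3.58.1 in R 4.3.3 (lmFit, eBayes with an intensity trend, cohort as a covariate, two-sided, Benjamini-Hochberg over 45037 probe sets), checked on simulated data. Slopes on the score, and their interactions with tumor status, were fitted in the same way. Only the slopes in the 13 lower-numbered tumor arrays had no cohort covariate. Technical measures were compared by a permutation test with 100000 resamples in Python 3.11.15. "Rose" and "fell" mean an adjusted p under 0.05 in limma. Errors are SE.

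Named were the 5 markers, the 12 largest rises and 12 largest falls among called genes brighter than the median probe set with the same sign in both cohorts, and up to 5 genes per list with the smallest p. Some genes stand on several lists. Further members of the 28 lists were named to complete a group, after their values were seen. Members and lists were chosen with earlier results of these data known. The labels name no animals, so p-values measure the spread between arrays, whose number limits the precision. Alternatives covered covariates, weights, filters, group sizes, the score's genes, single cohorts, array 19 of the validation tumors, low arrays 15 and 22 of the training tumors, and the label number as a block.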

Additional observations from a re-analysis of the deposited data

Results flagged for a closer look

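The slope on the cytotoxic score differed between tumor and control arrays, by limma's interaction term, for 3 genes. Pawr, a regulator of cell death, had a slope of 0.47 ± 0.12 (SE) in 51 tumor arrays and -0.91 ± 0.278 in 28 control arrays, a difference of 1.36 ± 0.27 (adjusted p = 0.0429). Galnt6, an enzyme of O-linked glycosylation, had slopes of -0.45 ± 0.0818 and 0.36 ± 0.138, a difference of -0.84 ± 0.161 (adjusted p = 0.0429). Scnm1, a splicing factor, had slopes of -0.13 ± 0.0424 and 0.29 ± 0.0812, a difference of -0.43 ± 0.0835 (adjusted p = 0.0429). These tumor and control arrays also differ in the dap spike-in and the transgene, and those differences and the presence of a tumor cannot be told apart.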

How the results depend on the processing

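The count of 7813 probe sets called became 4919 with the 13 highest against the 13 lowest arrays, 4723 with the score made without Klrd1, 12523 with array weights, 693 in the training arrays alone and 9 with the B cell, neutrophil and erythroid means as covariates. Chosen after seeing the data, leaving out low array training 15, low array training 22 or both gave 7876, 9334 and 9335 calls, and the 18S control as a covariate gave 7719. The share of calls that were higher, over genes, was 52.68% and fell to 38.13% without Klrd1 and 40.32% without Nkg7 in the score. With the label number as a replicate block 7837 were called; 8 numbers were shared by the groups, and the correlation of deviations between arrays of the same number ran from -0.229 to 0.343, over 0.1 in 4, so the numbers do not pair the samples. The cohort interaction gave 2 calls without dim probe sets. Slopes in control arrays were called for 13 probe sets, for 297 with array weights and for 215 without the cohort covariate. Slopes in the lower-numbered tumor arrays were called for 13, for 4 with array weights and for 8 without dim probe sets. The interaction of slope with tumor status was called for 3, for 3600 with array weights and for 13 without dim probe sets. With 25 against 25 arrays the dap difference passed the test at 0.53, and the GAPDH difference was -0.018 where it had been 0.11.

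With the leukocyte means as covariates the median turned over the B cell (-0.0081), neutrophil (0.003), basophil (-0.061) and platelet (-0.0017) lists, among lists with a median of at least 0.2 in size, as did 1810046K07Rik (-0.048), Fcer2a (-0.16), Lipg (0.70), Stfa3 (0.35), Cpne8 (0.075), Gm11545 (0.17), Abca13 (0.31), Irf4 (-0.0049), Mmp8 (0.003), Fpr2 (0.036), Fcgr4 (0.063), Ly6d (-0.033), Hdc (0.023), Il5ra (-0.10) and Oas2 (0.034). Smaller medians turned too, over the degranulation (0.0072), NK adaptor (0.045), dendritic cell (-0.039), mammary (-0.02) and interferon (0.093) lists. With validation array 19 entered, the platelet list (-0.12), Nrgn (-0.13) and Treml1 (-0.064) turned. Of the 127 other named genes that were called, 112 kept their call with 13 against 13 arrays, 113 with the dap covariate, 101 without Klrd1, 54 in the training and 101 in the validation arrays alone. The cause of these changes was not tested. Arrays give no counts, so their number alone limits the precision.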
